A study of Mus musculus with 16 samples.

Results

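The comparison described here asked how the effect of withdrawing TERT from mouse skin changed between 6 and 24 h. For each gene the difference between TERT-OFF and TERT-ON skin at 6 h was subtracted from the same difference at 24 h, on the log2 scale, so that a positive value means a gene was higher, relative to TERT-ON skin, at 24 h than at 6 h. This contrast used 8 of the 16 arrays of the series, 4 at 24 h and 4 at 6 h, and it could be tested for 12579 genes. All mice were iK5-TERT (K5tTA-tetop-TERT) animals at day 60, in which the keratin 5 promoter drives the tetracycline transactivator and so places the TERT transgene in basal keratinocytes of the epidermis and in the outer root sheath and bulge of the hair follicle. The transgene had been held silent by doxycycline in the drinking water during development and was then allowed to come on, which put the follicles into TERT-induced anagen, the growth phase. TERT-OFF mice received an injection of doxycycline (8 μg/g body weight), which shuts the transgene off, and TERT-ON mice were injected with PBS, which by design leaves it on. Dorsal skin was taken at 0, 6, 12 and 24 h, with 2 mice in each cohort. The methods of the study describe serial biopsies. The 4 arrays that share a number within a cohort were therefore treated as 1 mouse. Both cohorts carried the same 2 transgenes and had been biopsied before the 24 h sample was taken, and they differed in doxycycline itself as well as in TERT.

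TERT is the protein subunit of telomerase, and in mouse skin its overexpression is known to rouse resting follicles into growth. Skin that has been cut or disturbed follows a well-known sequence: keratinocytes, fibroblasts and resident immune cells release cytokines such as interleukin 1 and interleukin 6 together with chemokines, CXC chemokines that bind the receptor CXCR2 draw in neutrophils, CC chemokines draw in monocytes, and keratinocytes at the edge switch to the stress keratins and remodel the matrix. Growing cells in anagen skin also depend on ribosome assembly, polyamines and sterols.

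Every value below is an array intensity on the scale deposited by the authors, or a difference of log2 intensities. Median intensity was 32.9 to 36.3 across the 16 arrays. The Gapdh 5′ to 3′ signal ratio, a measure of RNA integrity, was 0.977 to 1.12 except on the 0 h array of TERT-ON replicate 1 (0.0599). That array does not enter the difference of the contrast. It does enter the shared estimate of the spread and every effect at 0 h given below, which limits those effects. The targeted gene was read first: Tert had an intensity of 14.9 and 14.0 in TERT-OFF skin at 24 h, against 22.6 and 60.1 in TERT-ON skin, and of 10.8 and 16.1 in TERT-OFF skin at 6 h, against 40.4 and 29.2 in TERT-ON skin. Tert was thus lower in TERT-OFF skin at both times, but TERT-ON skin was also far below its own 0 h intensities of 357 and 216, so the cohorts are called TERT-OFF and TERT-ON by their labels. The effect on Tert differed between the times by 0.03 (SE 0.58, adjusted p 0.993). Keratin 5 and keratin 14, markers of the basal cells that carry the transgene, were bright on every array (2435 to 5113 and 3191 to 6190). TERT-OFF replicate 1 differed from the other 3 mice before treatment, since the 8 hair shaft keratins with a value on every array had a mean log2 intensity of 4.52 there at 0 h, against 10.61 in TERT-OFF replicate 2 and 10.28 and 8.77 in the TERT-ON mice.

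The effect at 24 h, meaning TERT-OFF minus TERT-ON skin, differed from that at 6 h for 27 genes, or 0.215% of those tested, at an adjusted p under 0.05. Of these, 26 genes (0.207%) had a positive difference and 1 gene, Wdr45 (0.00795%), a negative one. At an unadjusted p under 0.05 there were 1307 genes (10.4%), 686 positive (5.45%) and 621 negative (4.94%), and the median difference over all genes was −0.04. The 26 genes shared a pattern over time. All 26 were higher in TERT-OFF skin at 24 h and lower at 6 h, each time relative to TERT-ON skin, with a median effect of 2.44 at 24 h and −0.81 at 6 h. The effect at 24 h was itself called for 23 of them (background 1.83% of genes called higher) and the effect at 6 h for 6 (background 0.596% called lower). These effects make up the difference that chose the genes, so their signs and counts describe the genes and support nothing further. Cxcr2, Il6 and Ptgs2 passed the filter on low values only with the help of the TERT-OFF arrays of 24 h, so these 3 had to be high there. Times outside the contrast were less clear-cut. At 12 h the median effect of the 26 genes was 0.38, with 20 of them above 0 and 2 called (background 1.89% called higher, and 56.2% of all genes above 0), and at 0 h it was 0.48, with 23 above 0 and none called (background 0.0318%, and 47.1% above 0).

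**Figure D1:**
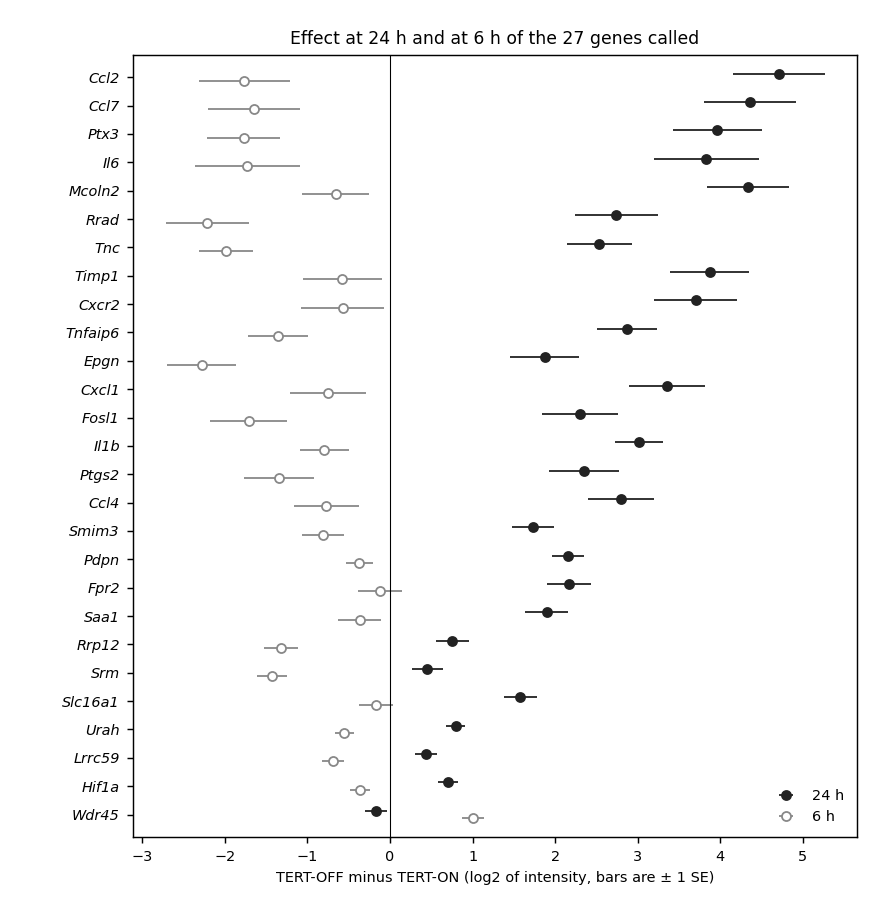
TERT-OFF minus TERT-ON on the log2 scale (x axis) for each of the 27 genes called in the contrast (y axis), at 24 h (filled) and at 6 h (open), with bars of 1 standard error. All genes but Wdr45, at the bottom, lie left of 0 at 6 h and right of 0 at 24 h.

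The largest differences were those of Ccl2 and Ccl7, CC chemokines that attract monocytes. Ccl2 (chromosome 11), which encodes the monocyte chemoattractant that binds CCR2, had an intensity of 468 and 512 in TERT-OFF skin at 24 h, against 16.7 and 20.9 in TERT-ON skin, and of 28.2 and 12.1 in TERT-OFF skin at 6 h, against 85.7 and 46.1 in TERT-ON skin. The cohorts thus changed places without overlap at either time. The difference of Ccl2 was 6.48 (SE 0.75, adjusted p 0.00905), made of an effect of 4.71 at 24 h and of −1.77 at 6 h. Ccl7, its neighbour in the same cluster and also a monocyte attractant, had 674 and 947 in TERT-OFF skin at 24 h, against 42.8 and 35.2 in TERT-ON skin, and 58.9 and 24.2 at 6 h, against 158 and 89.1 (difference 6.01, SE 0.76, adjusted p 0.0137). Ccl4, a chemokine made by activated macrophages and neutrophils, had 201 and 228 in TERT-OFF skin at 24 h, against 24.9 and 38.2 in TERT-ON skin, and 17.3 and 17.6 at 6 h, against 38.9 and 22.8 (difference 3.56, SE 0.54, adjusted p 0.0341). Ccl4 differed from the other called chemokines in that TERT-ON skin changed by 0.05 on average between the times, so that its mean difference lay in TERT-OFF skin. The TERT-ON mice went opposite ways, from 38.9 to 24.9 in replicate 1 and from 22.8 to 38.2 in replicate 2. Ccl12, from the same cluster, had a difference of 4.59 that did not pass (adjusted p 0.153).

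Cxcl1, the CXC chemokine that draws neutrophils through CXCR2, had 279 and 378 in TERT-OFF skin at 24 h, against 37.3 and 27.2 in TERT-ON skin, and 62.4 and 32.1 at 6 h, against 132 and 43.3. TERT-ON replicate 1 was the high sample at 6 h, while TERT-ON replicate 2 lay between the TERT-OFF mice. The difference was 4.10 (SE 0.63, adjusted p 0.0341), and the 3 probe sets of the gene gave 4.10 to 5.84. Ppbp, a platelet CXC chemokine, had a difference of 4.79 that narrowly missed the threshold (adjusted p 0.0617). Ppbp passed the filter on low values only with the help of the TERT-OFF arrays of 24 h, so it had to be high there. Of the 23 chemokine genes tested, 4 were called higher (Ccl2, Ccl7, Ccl4 and Cxcl1; 0.207% of all genes), and 9 were higher and none lower at an unadjusted p under 0.05 (5.45% and 4.94% of all genes). The related genes Cxcl2, Cxcl3 and Cxcl5 could not be tested, because they had empty cells on both TERT-OFF arrays of 24 h. They were among 10 genes so affected, with Plaur, Saa3, Nlrp3, Ankrd1, Hspb7, Prg4 and Ptgis. These genes are named here after their values were seen.

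Among the cytokines, Il6, the main driver of the acute-phase response, had 102 and 118 in TERT-OFF skin at 24 h, against 5.55 and 5.18 in TERT-ON skin, and 4.94 and 6.54 at 6 h, against 52.2 and 12.5. The transcript was thus near the limit of detection in TERT-OFF skin at 6 h and in TERT-ON skin at 24 h, where all 4 intensities lay under the floor of 7.71 that was applied before taking logs. With that floor the difference was 5.56 (SE 0.87, adjusted p 0.0365). Il1b, encoding interleukin 1 beta, had 532 and 409 in TERT-OFF skin at 24 h, against 55.2 and 60.3 in TERT-ON skin, and 60.6 and 40.8 at 6 h, against 109 and 68.6. Its difference of 3.81 had the smaller error (SE 0.40, adjusted p 0.00905), and its effect was already 1.48 at 12 h (adjusted p 0.0375). Over the list of interleukins, receptors and acute inflammation, 4 of 30 genes tested were called higher (Il6, Il1b, Ptgs2 and Saa1; 0.207% of all genes) and none lower. At an unadjusted p under 0.05, 13 were higher and 1 lower (5.45% and 4.94% of all genes). Il24, Il6 and Ptgs2 of this list passed the filter only with the help of the TERT-OFF arrays of 24 h, so these counts are a description.

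**Figure D2:**
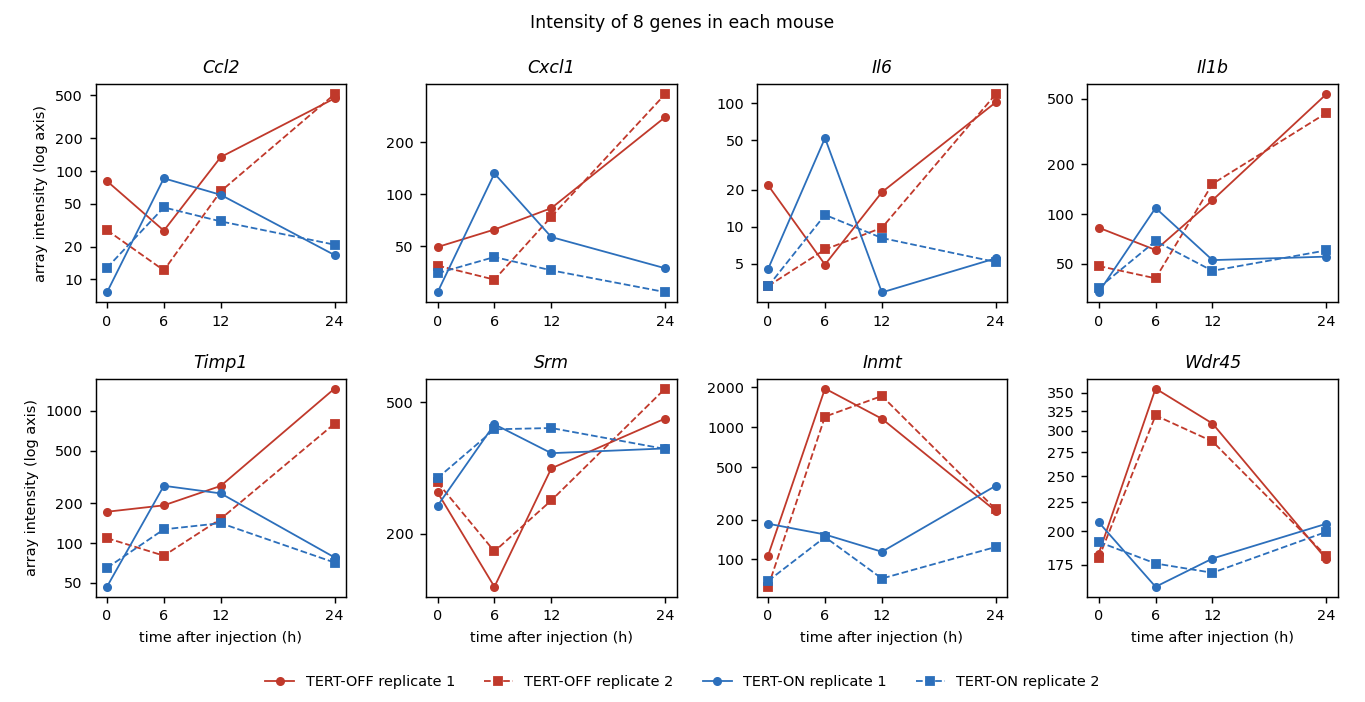
Array intensity (y axis, log scale) against hours after injection (x axis) for 8 genes, with 1 line per mouse, TERT-OFF in red and TERT-ON in blue. In the 5 inflammatory genes the TERT-OFF lines end highest at 24 h, Srm dips in TERT-OFF skin at 6 h, and Inmt and Wdr45 stand high in TERT-OFF skin at 6 and 12 h only.

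Promoter sequences were looked up for the called genes, since these moved together. RefSeq (GRCm38.p6) gave a sequence for 18 of the 26 genes, not including Ccl2, Ccl7 and Ccl4. The 250 bases before the start were searched on both strands for the 10-base NF-κB consensus, for the AP-1 site TGANTCA, for the E-box CACGTG that Myc and clock proteins bind, and for the TCF/LEF core CTTTGA. An NF-κB match was present in 2 of the 18 promoters (11.1%), against 8.74% of the 10107 tested genes with a sequence. AP-1 was matched in 2 (11.1%, against 4.77%), the E-box in 4 (22.2%, against 8.46%) and TCF/LEF in none (against 10.9%). The 4 promoters below are shown because they belong to called genes that hold a match. Capitals mark the AP-1 match (first) and the NF-κB match in Il6, a pair of overlapping NF-κB matches in Cxcl1, the AP-1 match in Tnfaip6 and the E-box in Slc16a1.
Il6, chr5:30012864-30013113, plus strand: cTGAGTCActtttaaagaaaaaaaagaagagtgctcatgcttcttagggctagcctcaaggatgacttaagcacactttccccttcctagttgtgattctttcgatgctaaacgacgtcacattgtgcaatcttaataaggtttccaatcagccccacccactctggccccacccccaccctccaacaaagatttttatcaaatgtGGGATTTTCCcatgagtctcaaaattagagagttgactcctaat
Cxcl1, chr5:90890995-90891244, plus strand: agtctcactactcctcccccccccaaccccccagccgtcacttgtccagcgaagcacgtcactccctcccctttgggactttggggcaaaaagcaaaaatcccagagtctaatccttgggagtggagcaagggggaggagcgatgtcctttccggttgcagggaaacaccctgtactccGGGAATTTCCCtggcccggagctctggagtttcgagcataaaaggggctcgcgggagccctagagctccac
Tnfaip6, chr2:52037863-52038112, plus strand: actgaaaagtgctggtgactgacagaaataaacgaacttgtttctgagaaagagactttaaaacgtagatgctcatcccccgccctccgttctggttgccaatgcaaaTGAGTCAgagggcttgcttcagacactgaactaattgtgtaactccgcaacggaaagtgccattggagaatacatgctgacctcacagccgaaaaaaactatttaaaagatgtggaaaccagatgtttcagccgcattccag
Slc16a1, chr3:104638414-104638663, plus strand: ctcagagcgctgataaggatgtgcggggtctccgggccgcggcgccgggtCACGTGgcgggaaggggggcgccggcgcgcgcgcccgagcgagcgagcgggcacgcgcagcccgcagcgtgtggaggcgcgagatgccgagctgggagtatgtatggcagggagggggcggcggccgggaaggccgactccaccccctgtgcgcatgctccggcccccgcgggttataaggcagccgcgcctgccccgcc
Hif1a, Pdpn and Mcoln2 held the other E-box matches. A match is a string of letters in this window and was not tested as a binding site.

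Receptors of neutrophils were also among the called genes. Cxcr2, the receptor for Cxcl1, had 88.2 and 114 in TERT-OFF skin at 24 h, against 3.61 and 2.02 in TERT-ON skin, and 9.25 and 4.57 at 6 h, against 20.5 and 2.94. Only TERT-OFF skin at 24 h stood clear of the background, and 4 of the other 6 arrays were under the floor (difference 4.28, SE 0.69, adjusted p 0.0392). The size of this difference is set in part by the floor. Fpr2, a formyl peptide receptor of neutrophils and macrophages, had 151 and 194 in TERT-OFF skin at 24 h, against 34.8 and 42 in TERT-ON skin, and 48.2 and 42.6 at 6 h, against 59.2 and 41.3 (difference 2.29, SE 0.37, adjusted p 0.0392). At 6 h the cohorts overlapped in Fpr2. The calgranulin gene S100a9, an abundant neutrophil transcript, reached 4784 and 4604 in TERT-OFF skin at 24 h, against 107 and 185 in TERT-ON skin, yet it was already above TERT-ON skin at 6 h (784 and 403, against 363 and 97.5), and its difference of 3.48 did not pass (adjusted p 0.126). Its effect had passed by 12 h (3.18, adjusted p 0.0264). S100a8 (2.21, adjusted p 0.257, with TERT-OFF replicate 1 empty at 24 h) and Csf3r, the G-CSF receptor (2.21, adjusted p 0.354), did not pass either. In the neutrophil list 3 of 16 genes tested were called higher (Cxcr2, Il1b and Fpr2), against 0.207% of all genes, 13 were higher at an unadjusted p under 0.05 and none lower, against 5.45% and 4.94%, and the median difference was 2.25. Of the 16, Cxcr2, Csf3r, Mmp8 and Prtn3 passed the filter only with the help of the TERT-OFF arrays of 24 h, so these counts are a description. Over the 14 of these genes with a value on every array, mean log2 intensity was 7.68 and 7.91 in TERT-OFF skin at 24 h, against 4.37 and 4.71 in TERT-ON skin, and 5.94 and 5.21 at 6 h, against 5.35 and 4.59. It was already higher in TERT-OFF skin at 0 h, with 5.73 and 4.81, against 4.14 and 4.26. More neutrophils and more RNA per cell cannot be told apart in whole-skin RNA. The part of these markers in the other differences was not tested.

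Several secreted proteins of the acute response were called as well. Tnfaip6, a hyaluronan-binding protein induced by interleukin 1 and TNF, had 602 and 652 in TERT-OFF skin at 24 h, against 116 and 63.0 in TERT-ON skin, and 196 and 159 at 6 h, against 553 and 371 (difference 4.23, SE 0.49, adjusted p 0.00905). Here TERT-OFF skin changed by 1.83 between the times and TERT-ON skin by −2.40. Ptgs2, the inducible cyclooxygenase, had 66.0 and 48.0 in TERT-OFF skin at 24 h, against 11.1 and 11, and 14.6 and 19.8 at 6 h, against 65.1 and 28.6 (difference 3.70, SE 0.57, adjusted p 0.0365). The pentraxin Ptx3 had 1 usable TERT-OFF array at 24 h, at 305, against 16.6 and 21.2 in TERT-ON skin, and 31.6 and 20.5 at 6 h, against 133 and 56.7. Its difference of 5.73 (adjusted p 0.0137) rests on that array, since the cell of TERT-OFF replicate 2 was empty. Saa1, an acute-phase apolipoprotein, had 111 and 91.6 in TERT-OFF skin at 24 h, against 26.6 and 27.4, and at 6 h the cohorts were close, with 20.4 and 26.8, against 34.6 and 26.2 (difference 2.26, SE 0.35, adjusted p 0.0365). Its near-identical relative Saa2 may share signal with this probe set.

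Matrix and epithelial genes formed the next group. Timp1, an inhibitor of matrix metalloproteinases, had 1478 and 802 in TERT-OFF skin at 24 h, against 77.9 and 71.2 in TERT-ON skin, and 193 and 80.3 at 6 h, against 271 and 127 (difference 4.45, SE 0.65, adjusted p 0.0274). At 6 h the cohorts overlapped. Tnc, encoding the wound matrix protein tenascin C, had 1001 in the 1 TERT-OFF mouse measured at 24 h, against 129 and 224, and 75.5 and 113 at 6 h, against 463 and 289 (difference 4.52, SE 0.50, adjusted p 0.00905). Pdpn, podoplanin, a membrane protein of lymphatic vessels, fibroblasts and wound-edge keratinocytes, had 2017 in that mouse, against 473 and 443, and 518 and 456 at 6 h, against 648 and 609 (difference 2.53, SE 0.25, adjusted p 0.00905). In both genes the cell of TERT-OFF replicate 1 at 24 h was empty, as it was in Mcoln2, an endolysosomal channel (4.99, adjusted p 0.0172), so that TERT-OFF skin at 24 h was 1 array in these tests. Epgn, the EGF receptor ligand epigen, had 615 and 552 in TERT-OFF skin at 24 h, against 133 and 189, and 97.3 and 209 at 6 h, against 1032 and 467 (difference 4.16, SE 0.57, adjusted p 0.0192). Epgn was the one of these genes with the largest effect at 6 h, −2.28, and that effect passed on its own (adjusted p 0.0381), as did that of Tnc (−1.98, adjusted p 0.0274). In the list of matrix metalloproteinases and their inhibitors, Timp1 alone of 20 genes was called. At an unadjusted p under 0.05, 9 were higher and 1 lower (Timp3), against 5.45% and 4.94% of all genes.

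Wound and stress keratinocyte genes had the highest median difference of the lists examined, 2.57 over 19 genes tested, with 13 higher and none lower at an unadjusted p under 0.05 (5.45% and 4.94% of all genes) and 1 called, Tnc, which had a single TERT-OFF array at 24 h. The median effect of this list was already 0.90 at 0 h, before injection. It was −0.56 at 6 h and 2.54 at 24 h. Krt6b, a stress keratin, had 5409 and 4907 in TERT-OFF skin at 24 h, against 194 and 1228 in TERT-ON skin, and 509 and 245 at 6 h, against 1024 and 980.0. Its difference of 4.91 did not pass (SE 1.23, adjusted p 0.216), since the TERT-ON mice were far apart at 24 h. Its partner keratin Krt16, named after its values were seen, had a difference of 4.21 (adjusted p 0.0918). The cornified envelope precursors Sprr2f and Sprr2i had differences of 4.69 and 4.26 (adjusted p 0.209 and 0.217), and probes of this family may not tell its members apart.

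Genes of signalling, protein synthesis and metabolism completed the positive set, most with smaller differences. Fosl1, an AP-1 subunit, had 56.6 and 73.0 in TERT-OFF skin at 24 h, against 11.8 and 14.4 in TERT-ON skin, and 29.3 and 15.3 at 6 h, against 81.4 and 59.1 (difference 4.01, SE 0.63, adjusted p 0.0366). Rrad, a small GTPase of muscle, had 262 and 543 at 24 h, against 66.9 and 47.7, and 27.8 and 12.7 at 6 h, against 82.3 and 92.0 (difference 4.95, SE 0.69, adjusted p 0.0195). For Srm, the enzyme that makes spermidine, the early loss was the larger part. It had 446 and 549 in TERT-OFF skin at 24 h, against 362 and 361 in TERT-ON skin, and 138 and 177 at 6 h, against 428 and 414. The effect of Srm was 0.45 at 24 h (adjusted p 0.198) and −1.43 at 6 h (adjusted p 0.0177), which gave a difference of 1.88 (SE 0.25, adjusted p 0.0172). Rrp12, which takes part in ribosome export, had the same shape, with an effect of 0.75 at 24 h and −1.32 at 6 h (difference 2.07, adjusted p 0.0172). Slc16a1, a lactate transporter, had 599 and 706 in TERT-OFF skin at 24 h, against 235 and 202, and at 6 h the cohorts were close, with 254 and 212, against 262 and 259.6 (difference 1.75, adjusted p 0.0365). The transcription factor gene Hif1a, which responds to low oxygen, had a difference of 1.07 with a small error (SE 0.16, adjusted p 0.0341), and its 3 probe sets gave 1.07 to 1.32. Smim3 (2.55, adjusted p 0.0193), the purine pathway hydrolase gene Urah (1.35, adjusted p 0.00905) and Lrrc59, of the endoplasmic reticulum (1.13, adjusted p 0.0392), were the rest. Hif1a, Lrrc59 and Wdr45 lay outside the 24 largest differences and are named because they were called.

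Wdr45, which encodes an autophagy protein (chromosome X), was the one gene called lower. It had 179 and 181 in TERT-OFF skin at 24 h, against 206 and 199.7 in TERT-ON skin, and 356 and 319 at 6 h, against 160.0 and 176. TERT-OFF skin was thus clearly above TERT-ON skin at 6 h and slightly below it at 24 h (difference −1.18, SE 0.18, adjusted p 0.0341). At 12 h, which the contrast does not use, Wdr45 was still higher in TERT-OFF skin (309 and 288, against 179 and 169, effect 0.77, adjusted p 0.0275). The second probe set of the gene gave −0.96. The call on Wdr45 was lost with the mouse as a fixed block (adjusted p 0.0814), with the replicate number as a block (0.0535), with no mouse block (0.0506), with median centring (0.0587), with quantile normalization (0.0579), on the 8 arrays alone (0.206) and with any mouse left out, although the difference stayed between −1.27 and −1.07. Larger negative differences did not pass. Akr1c14, an aldo-keto reductase of steroids, had 54.8 and 72.2 in TERT-OFF skin at 24 h, against 99.0 and 101, and 697 and 290.2 at 6 h, against 47.0 and 106 (difference −3.35, adjusted p 0.134). Cyp39a1, an oxysterol hydroxylase, came nearest to the threshold, with −2.17 (adjusted p 0.0581). Greb1, an oestrogen-responsive gene, had −3.03 (adjusted p 0.28). The most negative difference of all, −3.49, was that of Hoxa9 (adjusted p 0.401).

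Each difference is the change within TERT-OFF mice minus the change within TERT-ON mice. Between 6 and 24 h, 163 genes (1.3%) changed within TERT-OFF skin, 109 higher (0.867%) and 54 lower (0.429%) at 24 h, and none did within TERT-ON skin by limma, where 383 genes (3.04%) had an unadjusted p under 0.05. Of the 26 genes called higher, 24 also rose within TERT-OFF skin, a change that is part of the contrast that chose them, the exceptions being Ptgs2 (1.73, adjusted p 0.0717) and Fosl1 (1.60, adjusted p 0.112). Within TERT-ON skin 25 of the 26 genes had a lower estimate at 24 h than at 6 h, Ccl4 being the exception, but none passed (smallest adjusted p 0.467). The median change of the 26 genes between 6 and 24 h came to 2.18 and 2.19 for the TERT-OFF mice and −1.06 and −0.53 for the TERT-ON mice. TERT-ON replicate 1 at 6 h was the highest of the 8 TERT-ON arrays in 22 of the 26 genes, and it was above TERT-ON replicate 2 at that time in 24. Over the 22 genes with a value on every array, mean log2 intensity at 0, 6, 12 and 24 h was 6.56, 6.05, 7.04 and 8.33 in TERT-OFF replicate 1 and 6.13, 5.81, 6.75 and 8.46 in TERT-OFF replicate 2. It was 5.70, 7.32, 6.54 and 6.01 in TERT-ON replicate 1 and 5.84, 6.67, 6.44 and 6.02 in TERT-ON replicate 2. The TERT-ON mice were thus highest at 6 h, when the TERT-OFF mice were at their lowest.

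Genes that appeared late were defined as those with a called effect of at least 1 at 24 h and an effect under 0.5 in size at 6 h. There were 86, of which 63 were higher and 23 lower in TERT-OFF skin. For 4 of the 86 the difference between the times was itself called. At 12 h, which the definition does not use, all 63 were above 0 with a median of 0.80 and all 23 were below 0 with a median of −0.77, against 56.2% and 43.8% of all genes. Only 5 of the 63 and 3 of the 23 were called there (background 1.89% and 0.667%). At 0 h, before injection, the medians were 0.40 and −0.43, with 53 of the 63 and all 23 on the side they took at 24 h (background 47.1% and 52.9%) and no gene called. Part of the direction was thus present at the start, although the 0 h array of TERT-ON replicate 1, with its low Gapdh ratio, enters these values. Besides Pdpn, Fpr2, Saa1 and Slc16a1, which were also called in the contrast, the higher late genes held members of the inflammation list (6 of 30, with Saa1), the neutrophil list (3 of 16, with Fpr2) and the chemokines (1 of 23, Ppbp), against 63 of all 12579 genes. Ppbp had to be high in TERT-OFF skin at 24 h to pass the filter on low values, so the chemokine count is a description. Clec4d, a myeloid lectin receptor, had 344 and 385 in TERT-OFF skin at 24 h, against 22.1 and 23.8 in TERT-ON skin, and at 6 h the cohorts overlapped, with 29.0 and 27.6, against 58.3 and 26.5. Cyp7b1, an oxysterol hydroxylase, had 306 and 485 at 24 h, against 39.3 and 37.7, and 64.9 and 47.4 at 6 h, against 48.8 and 33.3. Before injection, at 0 h, Clec4d and Cyp7b1 already had effects of 1.60 and 1.97, and at 12 h of 1.82 and 1.3. The alarmin Il33, with 1 usable TERT-OFF array at 24 h, had 838, against 133 and 87.2, and the gelatinase Mmp9 had 125 and 128, against 29.7 and 18.3. The class also held the interleukin 1 receptor Il1r1, the oncostatin M receptor Osmr, the adaptor Myd88, the NF-κB subunit Relb and the adhesion molecule Icam1, with effects at 24 h of 1.01 (Icam1) to 1.71 (Osmr).

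The lower late genes held 3 of the 27 mitosis genes (Ccnb2, Aurkb and Cenpa), 1 of the 12 genes of the Myc family (Mycl) and 1 of the 19 of the cyclin and CDK inhibitor list (Cdkn1b), against 23 of all 12579 genes. Mycl, a relative of Myc, had 84.9 and 78.5 in TERT-OFF skin at 24 h, against 314 and 348 in TERT-ON skin, and 169.7 and 335 at 6 h, against 339 and 303 (effect at 24 h −2.02). The effect of Mycl was already −0.80 at 0 h, and −0.43 at 6 h. Ccnb2, a mitotic cyclin, had 163 and 86.5 at 24 h, against 363 and 325, and 189.7 and 275 at 6 h, against 243 and 289 (effect at 24 h −1.53). Aurkb, Cenpa and, outside the list, Racgap1, which act in chromosome segregation and cytokinesis, had effects of −1.37, −1.33 and −1.21 at 24 h. In Aurkb, Cenpa and Racgap1 the change between the times was 0.17, −0.03 and −0.08 in TERT-OFF replicate 1 and −1.13, −1.68 and −1.06 in TERT-OFF replicate 2. The inhibitor of the cell cycle Cdkn1b was in the same class, at 329 and 257, against 665 and 511. Sox4, a transcription factor of progenitor cells, had 319 and 453 at 24 h, against 979 and 773, and it fell within TERT-OFF skin between the times (by 1.34, adjusted p 0.0307). At the edges of the class, Dab2 was inside with a 6 h effect of 0.49 and Tlr2 outside with 0.50, and Cdkn1b was inside with a 24 h effect of −1.0 and Capn2 outside with 0.99.

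Genes whose early effect was gone, with a called effect of at least 1 at 6 h and under 0.5 at 24 h, numbered 53, of which 32 had been higher and 21 lower in TERT-OFF skin at 6 h. Under median centring 21 had been higher and 26 lower. The difference between the times was itself called for 2 of the 53, Srm and Wdr45, so for the rest the effects at 24 h and 6 h were not shown to differ after adjustment. At 12 h all 32 were still above 0 (median 1.01, 10 called) and all 21 below 0 (median −0.65, 4 called). Of all genes, 56.2% were above 0 and 43.8% below 0 at 12 h, with 1.89% called higher and 0.667% called lower. At 0 h the medians of the 32 and the 21 were 0.02 and −0.15. The sign taken at 6 h was present at 0 h in 18 of the 32 and 13 of the 21 (background 47.1% and 52.9%). Single members ranged from −0.60 (Klhl24) to 0.65 (Ogn) at 0 h, and none was called. Inmt, a methyltransferase of indoles, had 233 and 239 in TERT-OFF skin at 24 h, against 361 and 124 in TERT-ON skin, and 1963 and 1204 at 6 h, against 154 and 148. At 12 h it had 1159.6 and 1725, against 114 and 71.7, and at 0 h 107 and 62.1, against 186 and 68.7. The transcript was thus high in TERT-OFF skin at 6 and 12 h only. Its effect was 0.16 at 24 h and 3.35 at 6 h, and the difference of −3.19 did not pass (adjusted p 0.153). Depp1, a known target of FoxO factors, had 26.4 and 77.3 at 24 h, against 29.2 and 36.7, and 303 and 122 at 6 h, against 30.9 and 28.7 (difference −2.23, adjusted p 0.341). Pik3ip1, an inhibitor of PI3 kinase, had effects of 0.06 at 24 h and 1.96 at 6 h (difference −1.91, adjusted p 0.252), and Klhl24, a ubiquitin ligase adaptor for keratin 14, −0.16 and 1.58 (difference −1.74, adjusted p 0.0617). Crebrf, Bmf, a cell death activator, and Plscr4 had effects at 6 h of 1.66, 1.67 and 2.06 (adjusted p of the difference 0.11, 0.311 and 0.213). Klhl24 and Crebrf are named after their values were seen.

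The 21 early genes that were lower at 6 h held 3 of the 19 cholesterol synthesis genes (Idi1, Fdps and Lss) and 3 of the 25 ribosome assembly and nucleotide synthesis genes (Odc1, Srm and Rrp9), against 21 of all 12579 genes. Idi1, an isomerase of the cholesterol pathway, had 841 and 700.5 in TERT-OFF skin at 24 h, against 669 and 625 in TERT-ON skin, and 138 and 326 at 6 h, against 679.7 and 670.4 (effect −1.67 at 6 h, adjusted p of the difference 0.134). Fdps and Lss, of the same pathway, had effects of −1.27 and −1.24 at 6 h. Odc1, which makes putrescine, the substrate for Srm, had 1272 and 1664 at 24 h, against 1288 and 1149, and 503 and 824 at 6 h, against 1469.7 and 1398 (adjusted p of the difference 0.2). Srm and Rrp9, the genes Bysl, Ppan and Gar1, which also act in ribosome assembly but were not on the list, and Uck2, which salvages pyrimidine nucleosides, had effects at 6 h of −1.5 (Uck2) to −1.03 (Gar1). Over all genes, 5.45% were higher and 4.94% lower in the contrast at an unadjusted p under 0.05. Of the whole lists, 12 of 25 ribosome assembly and nucleotide synthesis genes and 9 of 19 cholesterol synthesis genes were higher at that threshold. None of either list was lower, and Srm alone was called. Their median differences were 0.77 and 0.64, made of median effects of 0.12 and −0.13 at 24 h and of −0.80 and −0.67 at 6 h. At the edges, Gstt2 was inside the class with a 24 h effect of 0.49 and Ddb2 outside with 0.50, and Wdr45 was inside with a 6 h effect of 1.01 and Eci2 outside with 0.99.

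**Figure D3:**
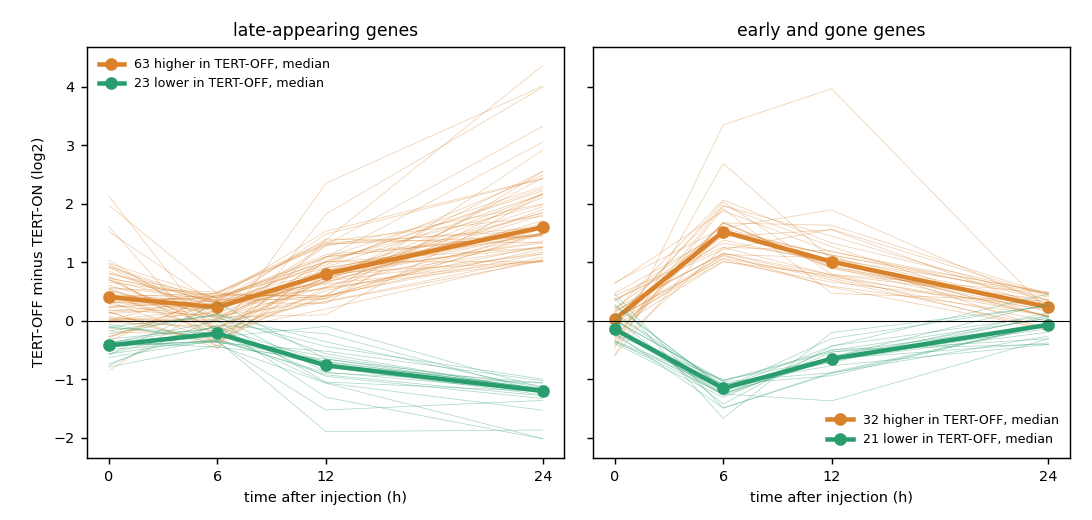
TERT-OFF minus TERT-ON (y axis, log2) against hours after injection (x axis), with a thin line per gene and a thick line for the median, for the 86 late-appearing genes (left) and the 53 early and gone genes (right), split by direction. The values at 6 and 24 h define the classes; at 12 h every line lies on the side of its class.

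A smaller set of 23 genes was called at both times in the same direction, 17 higher and 6 lower. It shows what the contrast leaves out. Cyp2e1, a cytochrome of xenobiotic metabolism, had 1410.4 and 1981 in TERT-OFF skin at 24 h, against 276 and 137 in TERT-ON skin, and 2447 and 1419 at 6 h, against 68.4 and 218, so its effect was about equally large at both times (3.11 and 3.93). Cxcl13, a B-cell chemokine, had 1103 and 865 at 24 h, against 110.0 and 134, and 1291 and 926 at 6 h, against 242 and 226, with a difference of 0.78 that did not pass (adjusted p 0.43). Chil1, a chitinase-like protein of macrophages and neutrophils, had 448 and 456 at 24 h, against 47.0 and 67.1, and 289.5 and 199 at 6 h, against about 100 and 66.0. Chil1 was already higher in TERT-OFF skin at 0 h (309 and 187, against 58.1 and 40.0), and 4 of the 23 genes were called at 0 h (background 0.0397%). The D-type cyclin Ccnd2 was lower at both times, with effects of −1.03 and −1.05.

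**Figure D4:**
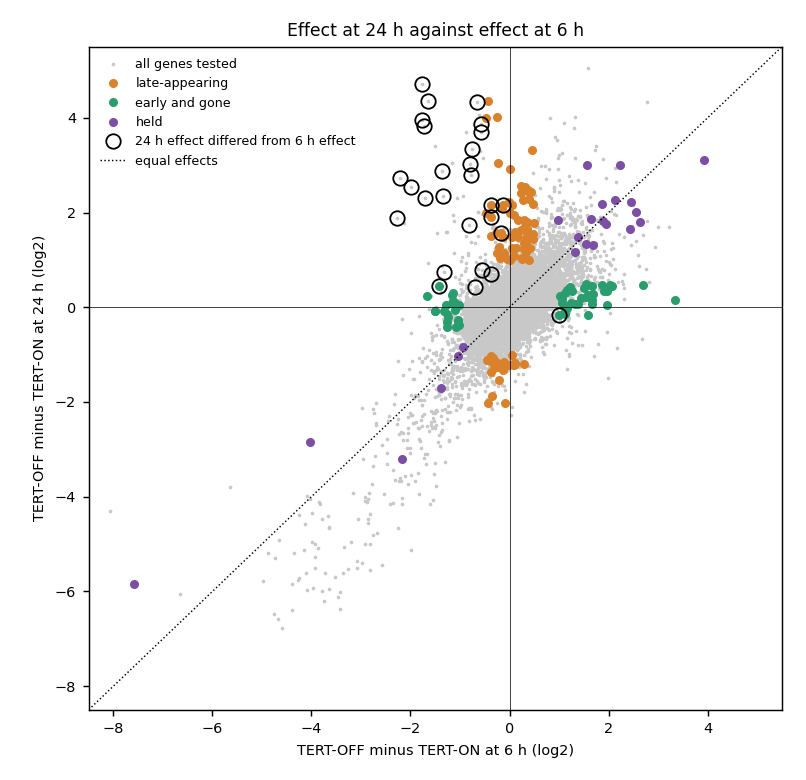
TERT-OFF minus TERT-ON at 24 h (y axis, log2) against the same difference at 6 h (x axis, log2) for the 12579 genes tested (grey), with the 86 late-appearing, 53 early and gone and 23 held genes in colour. Rings mark the 27 genes whose effects differed between the times, 26 of which lie at the upper left.

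The lists of genes showed which changes were shared by both mice of a cohort. For wound and stress keratinocyte genes the median change between 6 and 24 h came to 0.999 and 1.45 for the TERT-OFF mice and −1.88 and −0.32 for the TERT-ON mice. Neutrophil genes changed by 1.62 and 2.48 in the TERT-OFF mice and by −0.97 and 0.00 in the TERT-ON mice, and chemokines by 0.26 and 0.85 and by −0.55 and −0.34. In all 3 lists the cohorts were apart, with the TERT-OFF mice higher. The same held for ribosome assembly, cholesterol, matrix metalloproteinase and endothelial genes, among others. Several lists were apart the other way, among them Wnt pathway, melanocyte, bulge stem cell, BMP and TGF-beta pathway and Myc family genes. Of 12473 single genes, 19% were apart with TERT-OFF higher and 20.5% with TERT-OFF lower, so being apart does not single out these lists. The neutrophil and chemokine lists hold genes that passed the filter only with the help of the TERT-OFF arrays of 24 h. For ribosome assembly genes the medians were 0.88 and 0.31 in the TERT-OFF mice and −0.19 and −0.08 in the TERT-ON mice, and for cholesterol genes 0.75 and 0.55 and 0.07 and 0.08. Immediate early genes, which respond to growth factors and injury, had a median difference of 0.48, with 6 of 24 higher at an unadjusted p under 0.05, none lower and Fosl1 called. Over all genes, 5.45% were higher and 4.94% lower at that threshold. Heat shock and unfolded protein response genes had 0.36, with 7 of 20 higher and none lower, among them Hspa5, the main chaperone of the endoplasmic reticulum (0.98, adjusted p 0.0865). Manf, secreted under stress of that compartment and named after its values were seen, was the first gene past the threshold in all, at 1.42 (adjusted p 0.0507).

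Other cell types that a skin biopsy holds gave smaller median differences than the neutrophil list. Macrophage and monocyte genes had a median difference of 0.06, with 1 of 21 higher at an unadjusted p under 0.05 (5.45% of all genes), although their median effect was 1.35 at 24 h and 1.23 at 6 h. Their defining markers Adgre1 and Cd68 gave −0.03 and 0.23. The sign of Adgre1 turned with median centring, quantile normalization or 1 mouse left out, and that of Cd68 turned without TERT-ON replicate 2. T cell and Langerhans cell genes had 0.14, with 0 of 13, and mast cell genes 0.35, with 1 of 11. Endothelial genes had 0.57, with 3 of 16 higher, one of them Selp, P-selectin, which captures leukocytes (2.00, adjusted p 0.257). Fibroblast and collagen genes had −0.16, skeletal muscle genes 0.11 and basal keratinocyte genes 0.17. The B-cell markers Cd79a and Ms4a1 and the T-cell marker Cd3e did not pass the filter on low values.

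Mitosis genes and hair shaft keratins differed between mice more than between cohorts. At an unadjusted p under 0.05, 9 of 27 mitosis genes were lower and none higher (4.94% and 5.45% of all genes). Mitosis genes had a median difference of −0.82, and none was called. Their median change was 0.40 and −1.31 in the TERT-OFF mice, against 0.55 and 0.17 in the TERT-ON mice, so TERT-OFF replicate 2 alone went down, and without it the median difference was 0.049. Hair shaft keratins had a median difference of −1.46, with none of 12 at an unadjusted p under 0.05, and changes of −0.06 and −4.70, against −2.29 and 0.17. TERT-OFF replicate 1 had little hair keratin signal at any time, as given above. Melanocyte genes had −1.33, with none of 14, and changes of −0.27 and −2.37, against −0.17 and 0.28, so the cohorts were apart. Their median stayed negative with 1 mouse left out (−2.12 to −0.365). Circadian clock genes, examined because the times differ in hour of day, had −0.30, with 1 of 20 higher and 3 lower, among them Hlf (−1.46, adjusted p 0.428) and Per3 (−1.11, adjusted p 0.446). Xenobiotic and retinoid metabolism genes had −0.46, with 3 of 25 higher and 4 lower, and Wnt pathway genes −0.32, with 1 of 32 lower and none higher. Of the 28 genes that the study names in its text, none passed even the unadjusted threshold, and their median was −0.61. That list was chosen by the study on these samples.

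**Figure D5:**
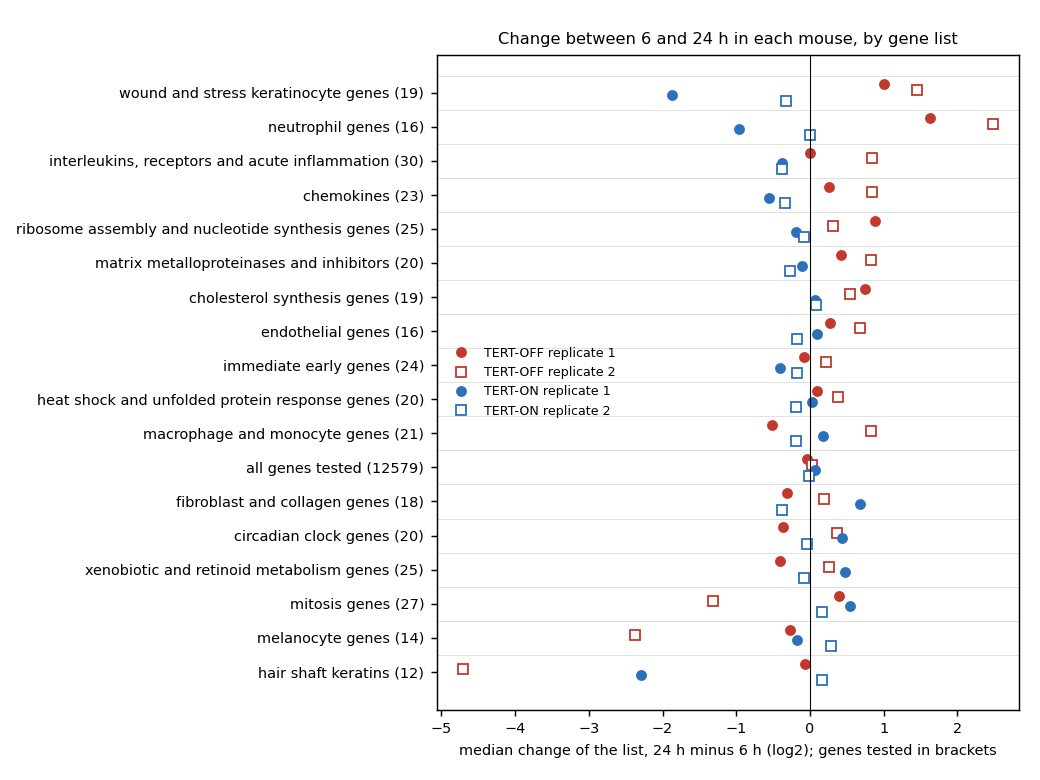
Median change of each gene list between 6 and 24 h (x axis, log2), with 1 point per mouse, TERT-OFF in red and TERT-ON in blue. The cohorts are apart for the inflammatory and wound lists at the top, and TERT-OFF replicate 2 lies far to the left for the mitosis, melanocyte and hair shaft lists at the bottom.

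Hoxa9, a posterior Hox gene that marks position along the body, had 20.9 and 287 in TERT-OFF skin at 24 h, against 261 and 184 in TERT-ON skin, and 225 and 214 at 6 h, against 34.6 and 87.8, while all 4 mice had 27 to 50.1 at 0 h. Hoxa10 and Hoxc10 had differences of −2.56 and −2.72 (adjusted p 0.326 and 0.358). They are named for the size of their differences. Many other Hox genes were also negative, such as Hoxa2 (−1.07), Hoxa5 (−0.94) and Hoxb6 (−0.90), and none of these 3 was called (adjusted p 0.498, 0.449 and 0.485). A few lay near 0, such as Hoxc5 (0.059) and Hoxc6 (−0.26). TERT-OFF replicate 1 was thus low in Hoxa9 at 24 h and TERT-OFF replicate 2 high. Myog, a regulator of muscle differentiation named after its values were seen, had the largest rise within TERT-OFF skin, 4.95 (adjusted p 0.00677), to 199.9 and 398 at 24 h, against 10.8 and 7.41 at 6 h. It was also high in TERT-ON skin at 24 h (156 and 118, against 6.86 and 40.7 at 6 h), and its difference between cohorts was 2.01 (adjusted p 0.471).

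The calls rested on all 4 mice. Without TERT-OFF replicate 2, without TERT-ON replicate 1 or without TERT-ON replicate 2 no gene was called by limma. Without TERT-OFF replicate 1 most of the 27 calls were lost and negative calls outnumbered positive ones, so the mostly positive split did not hold. Of the 26 genes called higher, the 25 with a value in that fit still had positive differences (median 3.65). With the mouse as a fixed block there were 17 calls, 15 of them among the 27, and on the 8 arrays of 6 and 24 h alone there were none, with 1187 genes at an unadjusted p under 0.05.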

How the data were processed

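RNA of 16 dorsal skin biopsies was hybridised to Affymetrix mouse 430 2.0 arrays, 1 array per biopsy. The authors deposited intensity values on a linear scale, which they made in dChip by normalizing arrays to an invariant set of probes and modelling differences between perfect-match and mismatch probes; software versions and scan batches are not given in the sources used here. Among the 45101 probe sets, 1425 cells were empty and stayed missing. A single gene symbol was available for 34958 probe sets, several for 932 and none for 9211, and symbols were brought up to date by gene ID.

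A floor of 7.71 (percentile 20 of all values) was set before log2 transformation. A probe set was retained if it exceeded 34.4, the overall median, on 2 or more arrays, and each gene was represented by its brightest probe set on average. In limma 3.58.1 (R 4.3.3, statmod 1.5.0) the 16 arrays were fitted with 8 group means, a random effect of mouse with a consensus correlation of 0.0727, and a trend in the variance. P-values were two-sided and adjusted by Benjamini-Hochberg over all retained probe sets, with a threshold of 0.05. All 16 arrays share 1 estimate of the spread. The number of arrays limits the precision, since a permutation of 2 mice against 2 cannot give a p under 0.333.

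Same-numbered arrays of a cohort were taken as 1 mouse because the methods describe serial biopsies. Their deviations from the group means correlated with a median r of 0.238 over 12 pairs of arrays (−0.149 to 0.637), against 0.0778 over 16 pairs of the same number across cohorts (−0.323 to 0.527). The ranges overlapped. Within TERT-OFF the pairs ran from 0.12 to 0.637 and within TERT-ON from −0.149 to 0.323, so the higher values came from TERT-OFF.

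The members and gene lists were chosen with earlier results of these data known. By rule, the text names the 24 largest called differences, the 12 most positive and 12 most negative with no overlap of the mice, up to 12 of each class, up to 4 of each list past an unadjusted p of 0.05, defining markers and genes the paper names. Others were named outside the rule after their values were seen. The text says so for some of them, but not for all, such as Aurkb, Cenpa, Il1r1, Bysl and Gar1. Alternatives covered the floor, filter, normalization, mouse and number blocks, trend, arrays fitted, missing values and each mouse left out. The fit was also run on simulated data with known differences, and the outcome of that run is not reported here. Figures were drawn with matplotlib 3.10.9.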

Additional observations from a re-analysis of the deposited data

Results flagged for a closer look

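The 27 genes below are listed because their effect, TERT-OFF minus TERT-ON, differed between 24 h and 6 h by the test of that difference (limma, adjusted p under 0.05). On the log2 scale the difference was 6.48 for Ccl2, 6.01 for Ccl7, 3.56 for Ccl4 and 4.10 for Cxcl1 among the chemokines. It was 5.56 for Il6, 3.81 for Il1b, 5.73 for Ptx3, 2.26 for Saa1, 4.23 for Tnfaip6 and 3.70 for Ptgs2 among other genes of inflammation, and 4.28 for Cxcr2 and 2.29 for Fpr2 among receptors of neutrophils. Genes of the matrix, the epithelium and growth signals had 4.45 (Timp1), 4.52 (Tnc), 2.53 (Pdpn), 4.16 (Epgn) and 4.01 (Fosl1). The rest of the positive differences were 4.99 for Mcoln2, 4.95 for Rrad, 2.55 for Smim3, 2.07 for Rrp12, 1.88 for Srm, 1.75 for Slc16a1, 1.35 for Urah, 1.13 for Lrrc59 and 1.07 for Hif1a. The 1 negative difference was that of Wdr45, at −1.18. With 2 mice in each group no single sample could be tested as standing apart from the others.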

How the results depend on the processing

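The count of 27 genes whose effect differed between 24 h and 6 h was 14 with no mouse block, 17 with the mouse as a fixed block (all higher) and 0 on the 8 arrays of 6 and 24 h alone (1187 at an unadjusted p under 0.05), and 0 to 17 with 1 mouse left out, where a lone mouse is assumed to vary like the other groups. It was 22 to 38 under the other settings tried, with 22 when the replicate number was the block over both cohorts. Without a filter on level the split was 22 higher and 5 lower, and 14 of the 27 genes were shared. Without TERT-OFF replicate 1, negative calls outnumbered positive ones.

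The 163 genes that changed within TERT-OFF skin became 103 without the filter, 74 without the mouse block, 108 with the replicate number as a block, 19 on the 8 arrays, 249 on the 12 arrays of 6, 12 and 24 h, and 1 to 50 with 1 mouse left out. Within TERT-ON skin the count of 0 became 2 without the filter and 0 to 1 with 1 mouse left out (1 without TERT-ON replicate 2). The 86 late-appearing genes became 23 without the filter, 132 with the replicate block, 31 on the 8 arrays and 0 to 260 with 1 mouse left out, where none remained without either TERT-ON mouse. The 53 early and gone genes became 17 without the filter, 0 on the 8 arrays and 0 to 418, with 418 without TERT-OFF replicate 2. Centring the arrays on their medians turned their split of 32 higher and 21 lower into 21 and 26. The 23 genes held at both times became 6, 76 with the replicate block, 0, 51 on the 12 arrays, and 0 to 281 (281 without TERT-OFF replicate 2). Classes were not formed with the mouse as a fixed block, which leaves no effect at a single time.

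With 1 mouse left out, the medians of the mitosis genes (−1.65 to 0.049), hair shaft keratins (−4.13 to 1.05), macrophage genes (−0.55 to 0.71) and genes the paper names (−1.10 to 0.12) changed sign, whereas those of wound keratinocyte genes (1.57 to 3.02), neutrophil genes (1.99 to 3.06), chemokines (0.86 to 1.13) and ribosome assembly genes (0.46 to 1.05) did not. Melanocyte genes (−2.12 to −0.365) and Wnt pathway genes (−0.496 to −0.00987) stayed negative. Adgre1 turned to 0.035 with median centring and 0.031 with quantile normalization, and gave −0.55 to 0.48 with 1 mouse left out. Likewise Cd68 gave −0.11 to 1.04, Cyp2e1 −2.17 to 0.52 and Tert −0.91 to 0.97, and Tert turned to −0.29 with a floor at the table median. None of these was called. Apart from the fewer samples in the leave-outs, the cause of these changes was not tested. Signal limits Il6 and Cxcr2, each with 4 of 8 arrays under the floor.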
